A study of Mus musculus with 13 samples.

Results

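The CC chemokines considered here are 9 genes of one family of secreted attractants, namely Ccl2, Ccl3, Ccl4, Ccl5, Ccl6, Ccl7, Ccl9, Ccl12 and Ccl17. They were taken by gene name from tables of RNA counts in mouse brain, and all 9 were among the 21056 genes present in all 4 tables. The series crossed a transient stroke with removal of microglia, the resident macrophages of the brain, and compared the groups by RNA sequencing of 13 brain samples. Every animal, controls included, was male and carried 1 copy of a tamoxifen-inducible Cre at Cx3cr1 (CX3CR1creER/+) together with 1 copy of a Cre-dependent diphtheria toxin receptor at Rosa26 (iDTR/+). All received tamoxifen at 7 to 8 weeks of age. In the depleted groups (DE) diphtheria toxin at 50 ng per g body weight followed 30 days later for 3 days, and the other groups (CON) had saline. In the tMCAO groups the right middle cerebral artery was blocked with a filament for 60 min and then reopened, while sham animals had surgery without occlusion. The surgery protocol gives an age of 6 to 8 weeks, which does not match the tamoxifen schedule, so the age at surgery is uncertain. The groups were tMCAO_DE (n = 2), tMCAO_CON (n = 4), sham_DE (n = 4) and sham_CON (n = 3), each library from an animal with its own identifier. Cx3cr1 is also active in other mononuclear phagocytes, so the toxin is not limited to microglia by the driver, and the sources used here give neither the time after reperfusion nor the brain region taken.

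Chemokines are small secreted proteins that form gradients and guide leukocytes through receptors on their surface. In the CC subfamily, Ccl2, Ccl7 and Ccl12 act on Ccr2, the receptor that draws monocytes out of the blood. Ccl3, Ccl5, Ccl6 and Ccl9 act on Ccr1, a receptor of myeloid cells, and Ccl17 acts on Ccr4 of T cells, while Ccl4 attracts lymphocytes and macrophages. In injured brain, microglia, macrophages, astrocytes and endothelial cells are known sources of one or another of them.

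Libraries held 16239763 to 22080367 counts over these genes. After a filter on low counts 16940 genes were tested, and 8 of the 9 chemokines passed it, Ccl5 being too low. Of 10 microglial marker genes, 10 were lower in both depleted groups, and their summed level was 52.8 to 57.7 CPM (counts per library size after TMM scaling) in tMCAO_DE, 320 to 421 in tMCAO_CON, 40.8 to 75.1 in sham_DE and 287 to 326 in sham_CON. The brain label matched the neuronal marker Snap25, which ranged from 2629 to 3689 CPM over all libraries. Replicate 4 of tMCAO_CON has a title and description of tMCAO but a treatment entry of sham surgery, and was grouped by the title. It lay above every sham_CON library in 7 of the 9 chemokines and within the range of the other 3 tMCAO_CON libraries in 3 of 9. In 5 of 9 it was the lowest tMCAO_CON library. No share over all genes was counted beside these. The astrocyte marker Gfap was at 924.1 CPM in replicate 4, within 667.3 to 1012 CPM over tMCAO_CON. It reached at most 91.41 CPM in sham_CON and 179.9 in sham_DE. Leaving replicate 4 of tMCAO_CON out changed no call on these chemokines. Among depleted libraries, replicate 1 of sham_DE stood apart on the first principal component of all tested genes, at -5.04 against 31.9 to 48 in the other 5.

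After depletion, occlusion raised 4 of the 8 tested chemokines, namely Ccl2, Ccl6, Ccl7 and Ccl9, against 6.59% of all tested genes called higher and 5.84% lower, 12.4% in all (edgeR quasi-likelihood test, Benjamini-Hochberg adjusted p under 0.05). With microglia present it raised 6 of 8, namely Ccl2, Ccl3, Ccl4, Ccl7, Ccl9 and Ccl12, where 5.14% of all tested genes were called higher and 3.31% lower, 8.44% in all. Within occluded brains depletion raised 1, Ccl17, and lowered 2, Ccl3 and Ccl12, where 9.36% of genes were called higher and 9.26% lower, 18.6% in all. Without occlusion depletion raised 3 of 8, Ccl2, Ccl12 and Ccl17, where 6.85% of genes were called higher and 4.49% lower, 11.3% in all. The test of whether the occlusion change differed between depleted and control animals called 1 of 8, Ccl12, among 8 called genes in all (0.0472%, of which 0.0413% lower and 0.0059% higher), while 1647 genes had an unadjusted p under 0.05. Of the 8, Ccl17 was thus called higher with depletion both within and without occlusion, while Ccl12 was called higher with depletion in sham animals and lower in occluded ones. Ccl3 and Ccl4 were called with microglia and not after depletion, but the difference itself did not pass, so they are given apart.

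The median log2 fold change of the 8 chemokines was 1.27 for occlusion after depletion and 3.37 with microglia, beside -0.000562 and 0.0167 over all tested genes. For depletion it was -0.3 within occlusion and 1.22 without it, beside -0.0117 and -0.00351 over all genes. Astrocyte markers also moved with occlusion, 1 of 5 called higher after depletion (Gfap) and 3 of 5 with microglia (Gfap, Aqp4 and Aldh1l1). Gja1 and Slc1a3 went the other way, though neither was called. Their log2 fold changes were -0.397 and -0.022 after depletion and -0.39 and -0.185 with microglia. The 5 summed to 1370 to 1410 CPM in tMCAO_DE and 1420 to 1860 in tMCAO_CON. In sham_DE the sum was 868 to 998 CPM, and in sham_CON 910 to 956. Gfap alone averaged 647, 848.5, 151.5 and 68.6 CPM in these groups, in the same order. The part of the astrocyte markers in the rises was not tested. Of 4 endothelial markers 3 were called higher with occlusion after depletion (Cldn5, Pecam1 and Cdh5, log2 fold changes of 0.72, 0.75 and 0.84) and 1 with microglia (Pecam1, 0.70). Their sums were 181 to 197 CPM in tMCAO_DE, against 128 to 179 in sham_DE, while those of tMCAO_CON, at 156 to 214 CPM, reached below and above all sham_CON libraries. Border macrophage markers were called higher in 0 of 9 after depletion (median log2 fold change -0.14) and in 4 of 9 with microglia (1.22), the 4 being Lyve1, Cd163, F13a1 and Folr2. Of the other lists, occlusion with microglia raised 2 of 10 microglial markers and 1 of 4 tested dendritic cell markers, occlusion after depletion lowered 1 of those 4, and 2 of 3 neuronal markers were lower in both comparisons. The part of these markers was not tested either. These comparisons share groups with one another, so each chemokine's values are given side by side and no overlap between comparisons was tested.

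**Figure D1:**
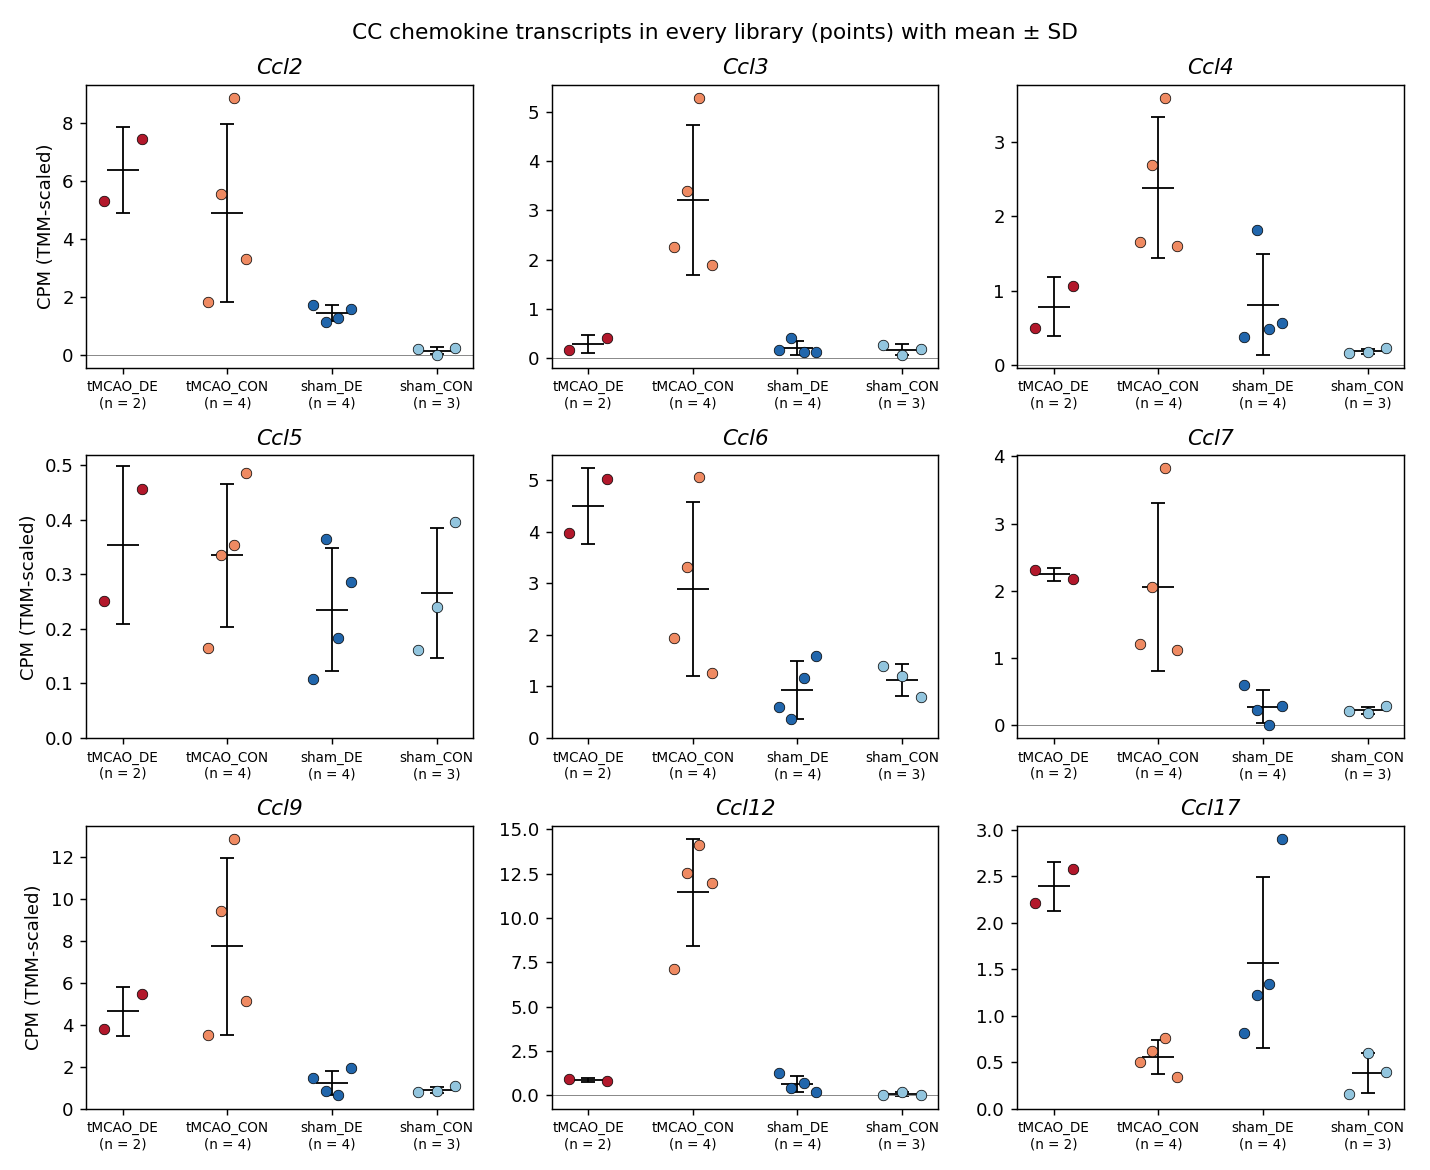
Level of each CC chemokine in CPM on TMM-scaled totals (vertical axes, a separate scale for each gene) in every library (points), with the group mean and SD (bars). Ccl3 and Ccl12 stand high in tMCAO_CON alone, and Ccl2, Ccl7 and Ccl9 are high in both occluded groups. Ccl6 is high in tMCAO_DE, while its tMCAO_CON libraries overlap those of sham_CON. Ccl17 is highest in depleted libraries, and Ccl5 is below 0.5 CPM throughout.

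**Figure D2:**
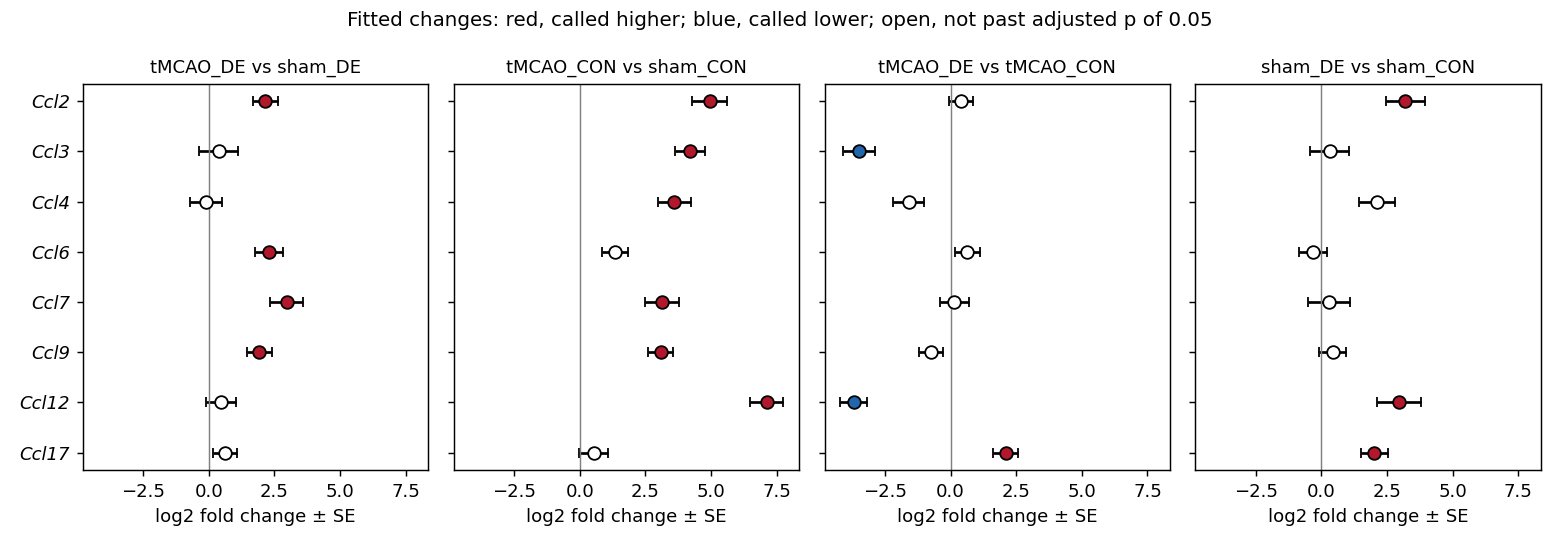
Log2 fold change ± SE of the 8 tested chemokines in 4 comparisons, each named with the group on top of the fold first. Filled points passed an adjusted p of 0.05 (red higher, blue lower) and open points did not, and Ccl12 has the values 0.47, 7.12, -3.69 and 2.96 in the panels from left to right.

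Of these genes 8 lie on chromosome 11 in 2 clusters and Ccl17 lies on chromosome 8 (GRCm38, the build called mm10, coordinates from GENCODE). In the first cluster Ccl2 spans chr11:82035571-82037453, Ccl7 chr11:82045712-82047525 and Ccl12 chr11:82101845-82103400, all on the plus strand. The second holds Ccl5 (chr11:83525778-83530518), Ccl9 (chr11:83572919-83578636), Ccl6 (chr11:83587882-83593087) and Ccl3 (chr11:83647844-83649355) on the minus strand and Ccl4 (chr11:83662584-83664683) on the plus strand. Ccl17 spans chr8:94810453-94812036 on the plus strand. All 9 are protein-coding, and their exons overlap those of no other annotated gene on either strand. The longest stretch of identical transcript sequence between members was 25 bases, between Ccl6 and Ccl9, followed by 23 bases between Ccl2 and Ccl7. Within a cluster the calls differed between members. Ccl2 and Ccl7, 8.3 kb apart, were called higher with occlusion in both depleted and control animals. Ccl12, 54.3 kb beyond Ccl7 with Ccl11 between them, had log2 fold changes of 0.47 ± 0.57 after depletion and 7.12 ± 0.63 with microglia. Likewise Ccl6 and Ccl9, 9.2 kb apart, were called higher with occlusion after depletion, and Ccl3, 54.8 kb from Ccl6, was not. With microglia, Ccl3 and Ccl9 were called higher and Ccl6 was not.

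**Figure D3:**
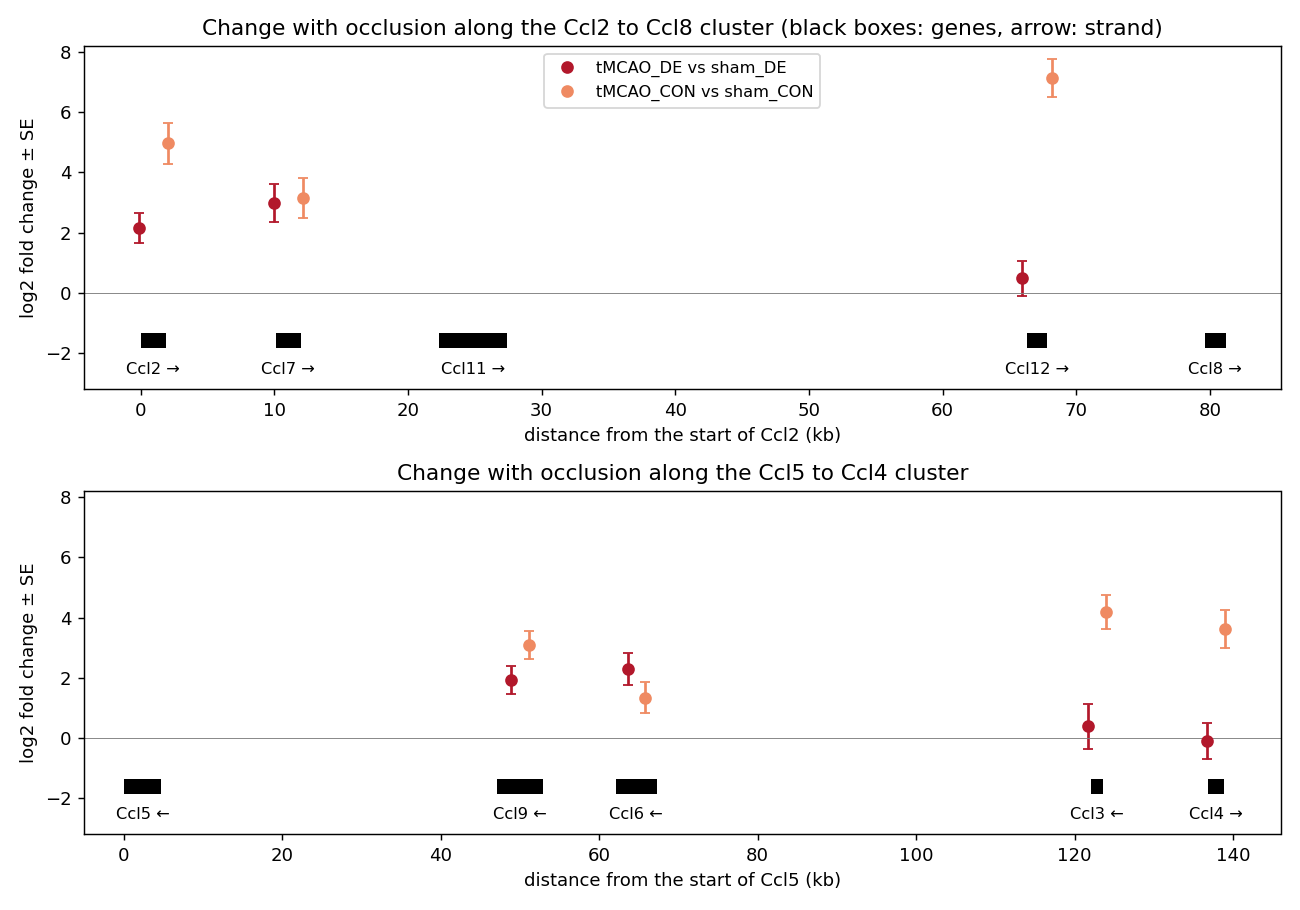
Log2 fold change ± SE with occlusion after depletion (dark red) and with microglia (orange), plotted by distance in kb from the start of the first gene of each chromosome 11 cluster, with genes as black boxes and arrows for strand. In the first cluster the points of Ccl7 lie together, at 2.97 and 3.14, and those of Ccl12 lie apart, at 0.47 and 7.12; points are moved slightly sideways for legibility, and genes without points were not tested.

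The RefSeq promoter table (GRCm38.p6) held 5 of the 9 genes, Ccl3, Ccl6, Ccl9, Ccl12 and Ccl17, and the 250 bases before the start of 4 are printed here as examples of the different patterns: Ccl12, called for the difference in occlusion change, Ccl3, lowered by depletion within occlusion, Ccl17, raised by depletion, and Ccl9, raised by occlusion in both. Capitals mark matches to the motifs searched on both strands, which were AGGAAG, bound by the myeloid factor PU.1, then TATAAA, the box of many core promoters, then TGANTCA, bound by AP-1, and, by name, the interferon response and NF-kappaB consensus motifs. Regions are chr11:82101595-82101844 (plus) for Ccl12, chr11:83649379-83649628 (minus) for Ccl3, chr8:94810203-94810452 (plus) for Ccl17 and chr11:83578637-83578886 (minus) for Ccl9.
Ccl12: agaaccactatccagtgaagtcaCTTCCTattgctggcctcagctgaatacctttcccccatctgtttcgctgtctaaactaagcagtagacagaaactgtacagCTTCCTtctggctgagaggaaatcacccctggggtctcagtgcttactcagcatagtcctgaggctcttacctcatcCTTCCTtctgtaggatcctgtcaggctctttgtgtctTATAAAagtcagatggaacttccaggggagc
Ccl3: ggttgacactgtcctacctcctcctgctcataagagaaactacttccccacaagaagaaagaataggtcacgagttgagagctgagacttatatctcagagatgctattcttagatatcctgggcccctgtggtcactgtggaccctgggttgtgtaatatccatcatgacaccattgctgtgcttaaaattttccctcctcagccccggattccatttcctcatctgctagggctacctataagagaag
Ccl17: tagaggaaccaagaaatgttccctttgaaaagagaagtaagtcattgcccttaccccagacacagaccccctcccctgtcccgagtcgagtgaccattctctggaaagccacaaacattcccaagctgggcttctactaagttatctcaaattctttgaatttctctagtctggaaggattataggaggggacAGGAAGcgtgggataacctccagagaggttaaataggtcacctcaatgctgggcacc
Ccl9: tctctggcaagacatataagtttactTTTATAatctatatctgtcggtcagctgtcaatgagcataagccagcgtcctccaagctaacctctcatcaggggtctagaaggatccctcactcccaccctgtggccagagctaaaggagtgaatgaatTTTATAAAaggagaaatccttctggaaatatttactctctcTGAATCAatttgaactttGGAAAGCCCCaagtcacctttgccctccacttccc
In Ccl12 the PU.1 core was matched 3 times, each on the strand opposite to the one printed, at -227 to -222, -145 to -140 and -68 to -63 from the start, and TATAAA once at -31 to -26. Ccl17 held 1 AGGAAG at -57 to -52, and Ccl3 none of the 5 motifs. Ccl9 held TATAAA 3 times, at -224 to -219, -94 to -89 and -92 to -87, the last 2 overlapping on opposite strands, with AP-1 at -53 to -47 and the NF-kappaB consensus at -35 to -26 on the opposite strand. Ccl6, not printed, held AGGAAG on the opposite strand at -73 to -68 and -47 to -42. Of 32851 promoters of the same length, 29.5% held AGGAAG, 12.4% TATAAA, 6.75% TGANTCA, 3.9% the NF-kappaB consensus and 2.98% the interferon response motif. A match is a run of letters and does not show that a factor binds there.

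Ccl12, a ligand of Ccr2 in mice, had the largest occlusion change with microglia of the 8 tested members. Its counts were 19 and 16 in tMCAO_DE, against 129, 262, 240 and 247 in tMCAO_CON, and 23, 9, 12 and 3 in sham_DE, against 1, 3 and 0 in sham_CON. Every tMCAO_CON library exceeded every library of the other groups, while tMCAO_DE lay within the range of sham_DE. Group means were 0.882 ± 0.102 CPM in tMCAO_DE, 11.4 ± 3.02 in tMCAO_CON, 0.639 ± 0.464 in sham_DE and 0.0777 ± 0.0921 in sham_CON (SD). After depletion the log2 fold change of tMCAO_DE over sham_DE was 0.47 ± 0.57 (SE; edgeR adjusted p = 0.64). With microglia present, tMCAO_CON over sham_CON gave 7.12 ± 0.63 (edgeR adjusted p = 3.6e-05), and 6.58 to 8.39 when 1 library at a time was left out. The rise with microglia was thus called and that after depletion was not. The difference between these changes was -6.65 ± 0.93 on the log2 scale (edgeR adjusted p = 0.028). That call was lost without sham_CON 1, sham_CON 3, sham_DE 3, tMCAO_DE 1 or tMCAO_DE 2, with edgeR adjusted p = 0.11, 0.091, 0.052, 0.076 and 0.096 in that order. It was also lost without the pair sham_DE 3 and sham_CON 2 (edgeR adjusted p = 0.085) and with the replicate block (0.14), so that 13 of 20 alternatives kept it, within a range of 1.2e-08 to 0.14. All alternatives kept its sign, with values of -7.92 to -3.39.

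In occluded brains Ccl12 was lower in tMCAO_DE than in tMCAO_CON by a log2 fold change of -3.69 ± 0.51 (edgeR adjusted p = 0.0013), which held in all 20 alternatives. In sham animals the direction was opposite: sham_DE exceeded sham_CON by 2.96 ± 0.83 (edgeR adjusted p = 0.038), although the lowest sham_DE library and the highest sham_CON library both had 3 counts. This call was fragile. It was lost without sham_CON 1, 2 or 3 (edgeR adjusted p = 0.12, 0.054 and 0.12), without sham_DE 1, 2 or 3 (0.051, 0.059 and 0.072) and without tMCAO_DE 1 or 2 (0.052 and 0.052), within a range of 0.0044 to 0.12. The microglial markers, 10 of 10 lower in both depletion comparisons, moved with the fall in occluded brains, and their part in the result was not tested. In bulk tissue, fewer cells of a type and less RNA per cell cannot be told apart.

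Ccl2, the main monocyte attractant of the Ccr2 group, rose with occlusion and with depletion alone. Counts were 106 and 147 in tMCAO_DE, 33, 116, 151 and 68 in tMCAO_CON, 32, 25, 21 and 28 in sham_DE, and 4, 0 and 4 in sham_CON. The sham_DE libraries lay above all sham_CON libraries, and both occluded groups overlapped each other. Means were 6.38 ± 1.499 CPM in tMCAO_DE, 4.89 ± 3.07 in tMCAO_CON, 1.44 ± 0.275 in sham_DE and 0.147 ± 0.127 in sham_CON. Occlusion raised it by 2.15 ± 0.48 log2 units after depletion (edgeR adjusted p = 0.014) and by 4.96 ± 0.67 with microglia (0.00096). The changes differed by -2.81 ± 0.91, which did not pass (edgeR adjusted p = 0.34, unadjusted p = 0.0084). Its occlusion rise was therefore called in both settings and not shown to differ between them. In the absence of occlusion, sham_DE exceeded sham_CON by 3.20 ± 0.74 (edgeR adjusted p = 0.019), a call lost without sham_CON 1, 2 or 3 (0.058, 0.06 and 0.056), within a range of 0.00011 to 0.13. Within occluded brains tMCAO_DE over tMCAO_CON was 0.39 ± 0.47 (edgeR adjusted p = 0.59). Border macrophage markers moved with the rise in sham_DE, 7 of 9 higher, with sums of 54.7 to 72.2 CPM in sham_DE and 22.2 to 33.1 in sham_CON, and their part in it was not tested.

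Ccl7, its neighbour and another Ccr2 ligand, followed occlusion but was not called with depletion. Its counts were 46 and 43 in tMCAO_DE, 22, 43, 65 and 23 in tMCAO_CON, 11, 5, 0 and 5 in sham_DE, and 4, 3 and 5 in sham_CON. Both occluded groups lay above both sham groups, and neither pair of depleted and control groups was separate. Occlusion raised it by 2.97 ± 0.63 log2 units after depletion (edgeR adjusted p = 0.011) and by 3.14 ± 0.66 with microglia (0.012). The difference between these was -0.17 ± 0.95 (edgeR adjusted p = 0.97). Depletion gave log2 fold changes of 0.14 ± 0.55 in occluded and 0.31 ± 0.80 in sham brains (edgeR adjusted p = 0.88 and 0.84). The rise with microglia was lost without sham_CON 1 (edgeR adjusted p = 0.054, range 1e-04 to 0.054), and the rise after depletion without either tMCAO_DE library (0.066 and 0.065 without replicates 1 and 2, range 0.00029 to 0.066).

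Ccl3, also called MIP-1 alpha, a ligand of Ccr1, was high in occluded brains with microglia. Counts were 3 and 8 in tMCAO_DE, against 41, 71, 90 and 39 in tMCAO_CON, and 3, 9, 2 and 2 in sham_DE, against 5, 1 and 3 in sham_CON. The 4 tMCAO_CON libraries stood above all others, and the remaining 3 groups overlapped. Mean levels were 0.278 ± 0.180 CPM in tMCAO_DE, 3.21 ± 1.53 in tMCAO_CON, 0.202 ± 0.140 in sham_DE and 0.166 ± 0.104 in sham_CON. After depletion the change with occlusion was 0.38 ± 0.75 log2 units (edgeR adjusted p = 0.78), and with microglia occlusion raised it by 4.19 ± 0.57 (0.001). These differed by -3.81 ± 0.98, which did not pass with edgeR (adjusted p = 0.23, unadjusted p = 0.0018) and passed with DESeq2 (adjusted p = 0.035), within a range of 0.035 to 0.49 over all alternatives. Within occluded brains Ccl3 was lower in tMCAO_DE than in tMCAO_CON, with a log2 fold change of -3.50 ± 0.62 (edgeR adjusted p = 0.0037), which held in all 20 alternatives, at -4.35 to -1.90. Without occlusion the change was 0.31 ± 0.74 (edgeR adjusted p = 0.82). The fall in occluded brains went with that of the microglial markers, whose sums were 52.8 to 57.7 CPM in tMCAO_DE and 320 to 421 in tMCAO_CON, and their part in it was not tested.

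Ccl4, or MIP-1 beta, an attractant of lymphocytes and macrophages encoded 13.2 kb from Ccl3 on the other strand, was also high in occluded brains with microglia. Its counts were 10 and 21 in tMCAO_DE, against 30, 56, 61 and 33 in tMCAO_CON, and 7, 40, 8 and 10 in sham_DE, against 3, 3 and 4 in sham_CON. Group means were 0.783 ± 0.397 CPM in tMCAO_DE, 2.38 ± 0.946 in tMCAO_CON, 0.814 ± 0.674 in sham_DE and 0.189 ± 0.0335 in sham_CON. Each depleted group was separate from its control group, and replicate 2 of sham_DE lay among the tMCAO_CON libraries. After depletion the change of Ccl4 with occlusion was -0.10 ± 0.60 log2 units (edgeR adjusted p = 0.94), and with microglia occlusion raised it by 3.61 ± 0.63 (0.0045). The difference of -3.71 ± 0.89 did not pass with edgeR (adjusted p = 0.21, unadjusted p = 0.0011) and passed with DESeq2 (0.022, range 0.022 to 0.45). Depletion within occluded brains gave -1.59 ± 0.58 (edgeR adjusted p = 0.073) and without occlusion 2.11 ± 0.68 (0.06). Without replicate 2 of sham_DE the change within occluded brains was -1.59 and passed (edgeR adjusted p = 0.023, range 0.023 to 0.35), and that without occlusion was 1.31 and did not (0.18, range 0.024 to 0.18).

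Ccl5, or RANTES, an attractant of T cells and monocytes, did not pass the filter on low counts. Its counts were 5 and 9 in tMCAO_DE, 3, 7, 6 and 10 in tMCAO_CON, 2, 8, 3 and 5 in sham_DE, and 3, 4 and 7 in sham_CON. All groups overlapped. Without the filter its adjusted p was 0.64 to 0.97 over the 5 comparisons (edgeR), with log2 fold changes of 0.55 ± 0.60 for occlusion after depletion and 0.33 ± 0.54 with microglia, so a change was not detectable at this depth. T and NK cells are known to make Ccl5. Of 8 listed markers of these cells only 4 were in all tables, and those summed to at most 0.706 CPM in any library.

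Ccl9, a Ccr1 ligand of myeloid cells in mice, rose with occlusion in both settings. It had 76 and 108 counts in tMCAO_DE, 64, 197, 219 and 106 in tMCAO_CON, 27, 18, 11 and 34 in sham_DE, and 15, 14 and 19 in sham_CON. Occluded libraries all exceeded sham libraries, and the tMCAO_DE libraries lay inside the range of tMCAO_CON. The means were 4.64 ± 1.17 CPM in tMCAO_DE, 7.75 ± 4.24 in tMCAO_CON, 1.22 ± 0.588 in sham_DE and 0.905 ± 0.146 in sham_CON. Occlusion raised it by 1.93 ± 0.47 log2 units after depletion (edgeR adjusted p = 0.021) and by 3.09 ± 0.48 with microglia (0.0023). The difference was -1.16 ± 0.69 (edgeR adjusted p = 0.61), and depletion gave -0.74 ± 0.45 within occlusion (0.27) and 0.42 ± 0.52 without it (0.63).

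Ccl6, a related Ccr1 ligand found in rodents, was called with occlusion after depletion only. Counts were 79 and 99 in tMCAO_DE, 35, 69, 86 and 26 in tMCAO_CON, 11, 8, 19 and 28 in sham_DE, and 26, 20 and 14 in sham_CON. The tMCAO_DE libraries lay above all sham_DE libraries, while tMCAO_CON and sham_CON overlapped on the CPM scale, at 1.26 to 5.06 and 0.791 to 1.395 CPM. Occlusion raised Ccl6 by 2.30 ± 0.52 log2 units after depletion (edgeR adjusted p = 0.014), and with microglia the change was 1.34 ± 0.50 (0.12). The difference between these was 0.95 ± 0.73 (edgeR adjusted p = 0.71), so the occlusion response was not shown to differ with depletion. Depletion gave 0.64 ± 0.49 within occlusion and -0.31 ± 0.54 without it (edgeR adjusted p = 0.38 and 0.75).

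All 4 calls for occlusion after depletion rest on the 2 tMCAO_DE libraries. Without tMCAO_DE 1 the edgeR adjusted p was 0.053 for Ccl2, 0.06 for Ccl6 and 0.064 for Ccl9, and without tMCAO_DE 2 it was 0.12, 0.11 and 0.16 in the same order. Over all alternatives the range was 0.00062 to 0.12 for Ccl2, 0.00096 to 0.11 for Ccl6 and 0.0018 to 0.16 for Ccl9, with every value positive.

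**Figure D4:**
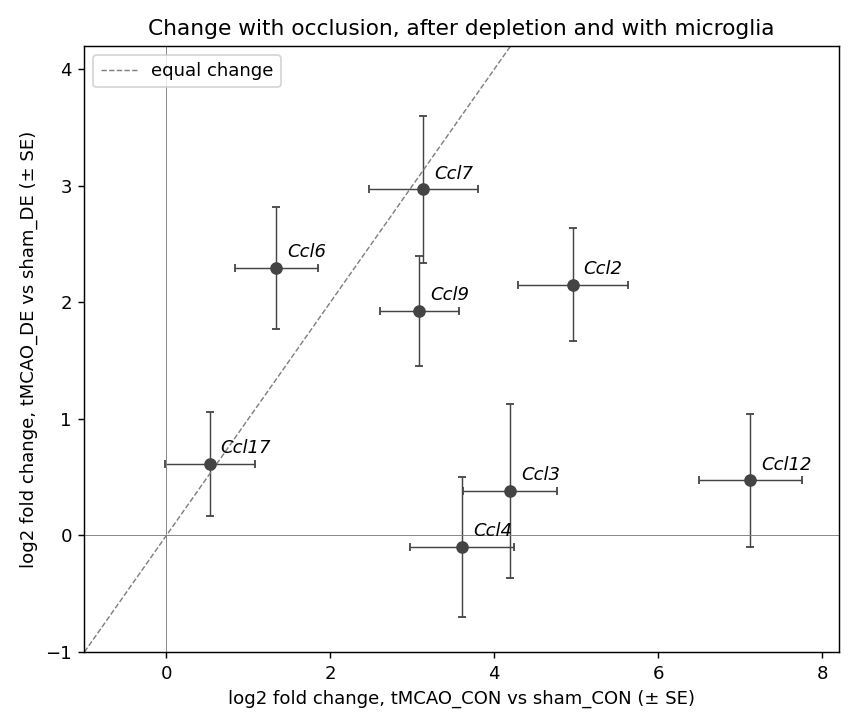
Log2 fold change with occlusion after depletion (vertical axis, tMCAO_DE over sham_DE) against that with microglia (horizontal axis, tMCAO_CON over sham_CON), with SE bars and a dashed line of equal change. Ccl7 lies near the line at 2.97 and 3.14, and Ccl3, Ccl4 and Ccl12 lie near 0 on the vertical axis at 4.19, 3.61 and 7.12 on the horizontal one; both axes come from 1 fit and no correlation is drawn from them.

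Ccl17, or TARC, a ligand of Ccr4 on T cells made chiefly by dendritic cells and macrophages, followed depletion and was not called with occlusion. It had 44 and 51 counts in tMCAO_DE, against 9, 13, 13 and 7 in tMCAO_CON, and 15, 27, 22 and 51 in sham_DE, against 3, 10 and 7 in sham_CON. Depleted libraries all lay above control libraries, and tMCAO_DE lay inside the range of sham_DE. Mean levels were 2.40 ± 0.264 CPM in tMCAO_DE, 0.556 ± 0.181 in tMCAO_CON, 1.57 ± 0.919 in sham_DE and 0.385 ± 0.219 in sham_CON. Depletion raised Ccl17 by 2.11 ± 0.48 log2 units within occlusion (edgeR adjusted p = 0.011) and by 2.02 ± 0.50 without it (0.025). Occlusion changes were 0.61 ± 0.45 after depletion and 0.53 ± 0.55 with microglia (edgeR adjusted p = 0.41 and 0.61), and their difference was 0.08 ± 0.77 (0.99). The call within occlusion was lost without tMCAO_DE 2 (edgeR adjusted p = 0.098, range 0.0019 to 0.098). The call without occlusion was lost without sham_CON 1, sham_CON 3 or sham_DE 4 (edgeR adjusted p = 0.093, 0.077 and 0.064, range 0.0043 to 0.093), with values of 1.55 to 2.47 when 1 library at a time was left out.

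Markers of other cells and tissues were read beside Ccl17. The 5 dendritic cell markers in the tables summed to 20.2 to 21.3 CPM in tMCAO_DE and 26.8 to 29.7 in tMCAO_CON. The sum was 29.2 to 35.1 CPM in sham_DE and 32 to 34 in sham_CON. Nearly all of it came from Flt3 and Zbtb46, so the sum says little about the other genes. Cd209a, a dendritic cell lectin, did not exceed 0.2824 CPM in any library, and edgeR called 0 of the 4 tested in either depletion comparison, with 2 of them at an unadjusted p under 0.05 in each (DESeq2 called 1 without occlusion and 0 within it). Without occlusion these were Ccr7 and Itgax, both in the direction of Ccl17, with log2 fold changes of 2.31 (edgeR adjusted p = 0.075) and 2.22 (0.095), and the median of the 4 was 1.095. Within occlusion they were Flt3 and Zbtb46, in the opposite direction, at -0.37 (edgeR adjusted p = 0.09) and -0.56 (0.079), and the median was -0.47. Border macrophage markers, of which 7 of 9 were higher with depletion without occlusion and 3 of 9 within it, summed to 56 to 73.1 CPM in tMCAO_DE, 38.7 to 61.8 in tMCAO_CON, 54.7 to 72.2 in sham_DE and 22.2 to 33.1 in sham_CON. Of 4 transcripts typical of tissues outside the brain (Muc2, Gucy2c, Duox2 and Ctrb1), 4 were higher with depletion without occlusion and 3 within it. This list was chosen with earlier results of these data known, so these calls are no separate support. The 4 summed to 23.1 to 25.5 CPM in tMCAO_DE and 1.7 to 2.93 in tMCAO_CON. In sham_DE their sum was 2.16 to 41 CPM, and in sham_CON 0.376 to 1.24. Replicate 1 of sham_DE was lowest both in that sum, at 2.16 against 21.9 to 41 in the other sham_DE libraries, and in Ccl17, at 0.811 CPM. Among replicates 2, 3 and 4 the order was reversed. Their sums were 41, 39.2 and 21.9 CPM, and their Ccl17 levels 1.227, 1.341 and 2.907 CPM. Without replicate 1 of sham_DE the Ccl17 change in sham animals was 2.24 (edgeR adjusted p = 0.0064). The part of these transcripts in the result was not tested.

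Per length, the makeup of the chemokine pool differed by group. Summed FPKM (fragment counts relative to gene length and depth, the authors' values) over the 9 genes was 17.0 ± 2.55 in tMCAO_DE, 31.5 ± 12.2 in tMCAO_CON, 7.19 ± 1.74 in sham_DE and 2.55 ± 0.311 in sham_CON. Ccl17 ranked first in tMCAO_DE at 4.72 FPKM, followed by Ccl2 at 3.38, Ccl7 at 2.83 and Ccl6 at 1.78. In CPM, which ignores length, Ccl17 there stood at 2.40, below Ccl2 at 6.38, Ccl9 at 4.64 and Ccl6 at 4.49. Ccl12 ranked first in tMCAO_CON at 13.1 FPKM, ahead of Ccl3 at 4.33 and Ccl4 at 3.72. Ccl12 made up 5.95% of the summed FPKM in tMCAO_DE and 43.1% in tMCAO_CON, where single libraries gave 34.7% to 54.4%. For Ccl17 the shares were 27.8% in tMCAO_DE, 3.69% in tMCAO_CON, 40.3% in sham_DE and 27.4% in sham_CON. By group means Ccl17 also ranked first in both sham groups, at 3.02 FPKM in sham_DE and 0.725 in sham_CON. It was not first in replicate 2 of sham_DE, where Ccl4 made up 35.7% and Ccl17 31.0%, nor in replicate 1 of sham_CON, where Ccl6 made up 24.0% and Ccl17 13.8%. By group means Ccl5 ranked last in all but sham_CON, where Ccl2 was lowest at 0.0738 FPKM.

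**Figure D5:**
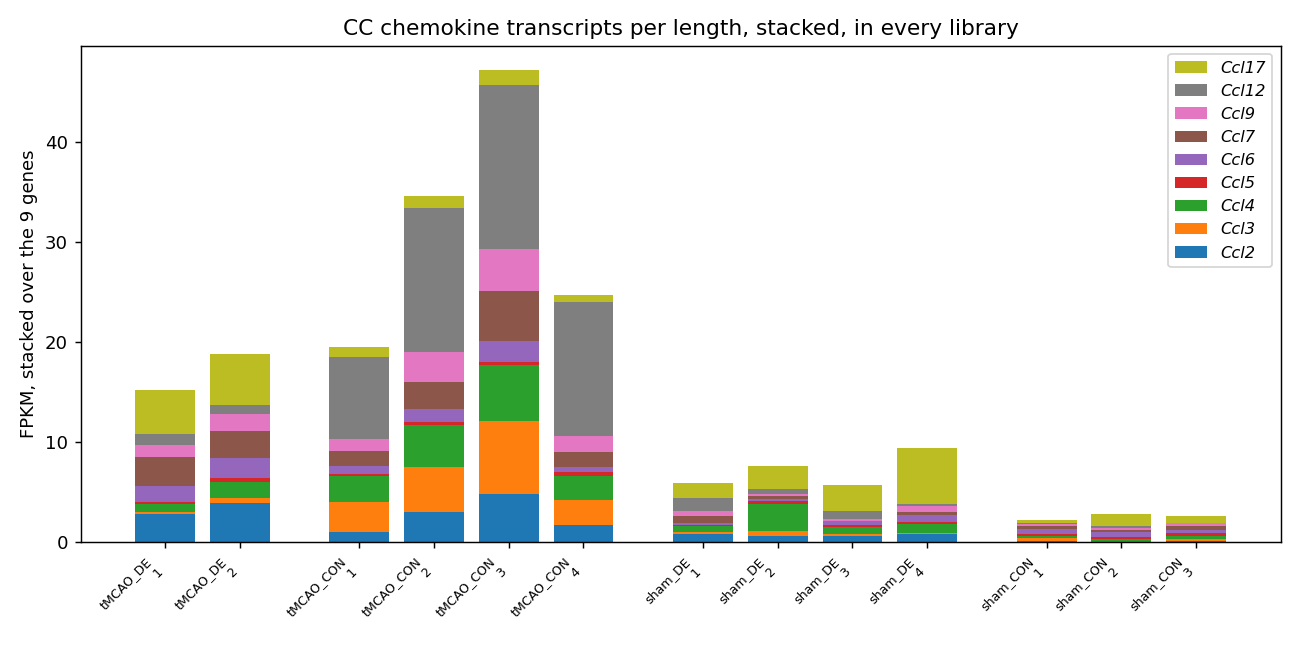
FPKM of the 9 CC chemokines stacked for every library (horizontal axis, group and replicate number), each colour 1 gene. The grey block of Ccl12 dominates the 4 tMCAO_CON bars, whose totals run from 19.5 to 47.2, and is thin in the tMCAO_DE bars, whose totals are 15.2 and 18.8.

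The 4 tMCAO_CON libraries differed in level across most chemokines. Replicate 3 was the highest library in 8 of 9 genes, and replicate 1 or 4 the lowest in all 9. The highest library exceeded the lowest by 4.88-fold for Ccl2, 4.01-fold for Ccl6, 3.65-fold for Ccl9 and 3.43-fold for Ccl7, but 1.98-fold for Ccl12, all on the CPM scale. Replicate 3 also had the highest summed microglial (421 CPM), border macrophage (61.8), monocyte (24.6), neutrophil (3.88), T and NK cell (0.706), dendritic (29.7), astrocyte (1860) and endothelial (214) markers of that group and the lowest neuronal ones (4660), and their part in the spread was not tested. Between the 2 tMCAO_DE libraries, replicate 2 was higher in 7 of 9 genes, by at most 2.69-fold (Ccl3).

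Ccr2, the receptor of Ccl2, Ccl7 and Ccl12, had counts of 11 and 8 in tMCAO_DE, against 0, 4, 30 and 0 in tMCAO_CON, and 9, 11, 3 and 8 in sham_DE, against 0, 8 and 8 in sham_CON. Replicate 3 alone held 30 of the 34 counts in tMCAO_CON, and the levels were too low for a difference to be detectable (edgeR adjusted p = 0.93 for occlusion after depletion and 0.81 with microglia). Of the 4 tested monocyte markers edgeR called 0 in the 5 comparisons, with 0 at an unadjusted p under 0.05 and 0 by DESeq2, and the 7 in the tables summed to 18.5 to 27.3 CPM in every library, mostly from Vcan. Vcan alone gave 17.55 to 23.86 CPM, so the sum says little about the other genes. Over tMCAO_CON, Chil3 ran from 0.1104 to 1.529 CPM and Plac8 from 0.194 to 0.8823, both highest in replicate 3. Ccr4, the receptor of Ccl17, was listed but was not among the genes present in all 4 tables, so it was not analysed. Of 4 atypical receptors, which bind chemokines without signalling to migration, 3 were tested and edgeR called 0, with 1 at an unadjusted p under 0.05 for occlusion after depletion and 0 in the other comparisons, and 0 by DESeq2.

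Of 15 other CC chemokines listed, 7 were in all tables and 3 were tested, Ccl25, Ccl27a and Ccl28, with 0 called by edgeR in the 5 comparisons. At an unadjusted p under 0.05 there were 1 for either occlusion comparison, 2 for either depletion comparison and 0 for the interaction, and DESeq2 called 1 in each of the first 4 and 0 in the interaction. Ccl27a, the most abundant, averaged 32.5 ± 4.198 CPM in tMCAO_DE, 44.8 ± 3.71 in tMCAO_CON, 46.9 ± 9.76 in sham_DE and 61.7 ± 8.78 in sham_CON, and its lowest edgeR adjusted p was 0.058. Its symbol has several entries in the tables, which were summed, so its level is uncertain. Ccl8, next to Ccl12 in the first cluster, had 0 counts in tMCAO_DE, 6 in tMCAO_CON, 0 in sham_DE and 4 in sham_CON, summed over libraries.

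The tested genes with the pattern closest to each chemokine were found by the root mean square difference of centred log2 CPM over the 13 libraries, among 15448 genes reaching 1 CPM in some group. Closest to Ccl12 were Msr1, a macrophage scavenger receptor, at 0.762 log2 units, then Lilr4b, whose close copy Lilrb4a makes its count uncertain, at 0.85 and Hcar2 at 0.899. Hcar2 was also among the closest to Ccl3, at 0.673, after Cd72, a B cell and myeloid co-receptor, at 0.546, and ahead of Tlr1 at 0.678. Ccl4 lay closest to Tlr2 at 0.50, Cd300ld at 0.597 and AI607873 at 0.605. For Ccl2 they were Bcl3, a regulator of NF-kappaB, at 0.64, the chemokine Cxcl10 at 0.701 and Cebpd at 0.738. Cd44, the hyaluronan receptor, was closest to both Ccl7, at 0.559, and Ccl9, at 0.453, followed by Adamts1 and Tnfrsf1a for Ccl7 and by Socs3 and Aspg for Ccl9. Ccl6 lay closest to Procr at 0.465, Htra4 at 0.484 and Lpin3 at 0.524. Ccl17 lay closest to Spdef, an epithelial transcription factor, at 0.358, Perm1 at 0.414 and Gm17276 at 0.422. Among the chemokines themselves Ccl7 and Ccl9 were nearest, at 0.541, and Ccl12 and Ccl17 farthest apart, at 2.67. These distances describe the 13 libraries, which share 4 groups, and say nothing of shared control.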

How the data were processed

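Brain RNA of 13 mice in 4 groups was analysed. Per the labels' protocols, total RNA was made into paired-end libraries with the TruSeq kit. The authors deposited, per gene and library, whole-number read counts and FPKM values, and a mean FPKM per group, in 1 table per group. The tools were Cufflinks 2.1.1 and Cuffdiff with build mm10, per the submitters' processing notes. The sources used here do not give the aligner, annotation, counter or strand setting. Entries with the same symbol were summed, and date-like names were left out.

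Counts were scaled with TMM, filtered with filterByExpr (16940 genes kept, 4116 removed) and fitted as 4 group means over all libraries with edgeR 4.0.16 (quasi-likelihood, R 4.3.3; biological coefficient of variation 15.2%). The 5 contrasts were two-sided, with Benjamini-Hochberg adjustment over all tested genes and a threshold of 0.05. Standard errors are the absolute log2 fold change over the square root of F. Residual spread is shared between groups, because tMCAO_DE has 2 libraries. Alternatives were DESeq2 1.42.0, its size factors in edgeR, no filter, limma 3.58.1 on log2(FPKM + 0.1) and log2(FPKM + 1), each library left out, the pair sham_DE 3 and sham_CON 2 (high neutrophil markers, 35.1 and 34.5 CPM) left out, and a replicate block. Neutrophil markers also summed to 13.6 CPM in tMCAO_DE 1, against 3.54 in tMCAO_DE 2 and 1.26 to 3.88 in tMCAO_CON. The steps were tested on simulated data. No 2 libraries of a group were alike within counting error (chi-square per gene at least 10.5). The genotype entries number the Rosa locus differently between libraries and were read as 1 genotype. Separate animal identifiers are the only sign of separate animals, so p-values measure the spread between these samples.

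All members were named whatever their result, other family genes only if called, and 3 nearest genes per tested member. Ccl8, Ccl27a and Ccr2 fall outside this rule and were chosen after their values were seen. Ccl25 and Ccl28, named as tested, and Ccr7, named as a dendritic cell marker, also fall outside it. One gene that the rule named is not reported here. Members and lists were chosen with earlier results of these data known.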

Additional observations from a re-analysis of the deposited data

Results flagged for a closer look

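Ccl12 changed with occlusion by a different amount in depleted and in control animals, with a difference of -6.65 on the log2 scale by the interaction test. The log2 fold changes behind it were 0.47 in depleted and 7.12 in control animals. Read the other way, depletion gave -3.69 in occluded and 2.96 in sham animals, so the sham rise is part of the difference. Both 7.12 and 2.96 are folds over sham_CON, where the counts were 1, 3 and 0. The call (edgeR adjusted p = 0.028) was kept in 13 of 20 alternatives, and was lost when any 1 of 5 libraries was left out, without the pair sham_DE 3 and sham_CON 2 (0.085) and with the replicate block (0.14).

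Replicate 2 of sham_DE stood far above the other 3 sham_DE libraries in 2 chemokines. Its Ccl4 level was 1.82 CPM, against 0.378 to 0.57 in the others, and its Ccl3 level was 0.409 CPM, against 0.114 to 0.162. The counts were 40 against 7, 8 and 10 for Ccl4, and only 9 against 3, 2 and 2 for Ccl3. These were 2 of 18 sets of 4 libraries looked at, both set apart by the same library. Chance alone marks about 1 in 20 such sets under a normal spread, which was not checked at counts this low.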

How the results depend on the processing

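Under 20 alternatives no called value changed sign. Of the values of single chemokines, 752 kept their side of the threshold, 40 lost a call and 8 gained one. For depletion without occlusion, 3 chemokines were called, and 1 with limma on log2(FPKM + 1), 0 without the pair sham_DE 3 and sham_CON 2, and 1 with the replicate block. For the interaction 1 was called, 3 with DESeq2 (Ccl3, Ccl4 and Ccl12), 0 without that pair and 0 with the replicate block. The cause was not tested. With 1 library left out, the number called ran from 0 to 4 for occlusion after depletion, 5 to 6 for occlusion with microglia, 2 to 4 for depletion within occlusion, 0 to 3 for depletion without it and 0 to 1 for the interaction. A lone tMCAO_DE library was then assumed to vary like the other groups. Besides single libraries, limma on log2(FPKM + 1) ended the calls of Ccl9 for occlusion after depletion and of Ccl2 and Ccl12 for depletion without occlusion. Leaving out the pair ended these and that of Ccl17 for depletion without occlusion, and the replicate block ended those of Ccl12 and Ccl17 there. Ccl4 gained a call for depletion without occlusion with DESeq2 and limma on log2(FPKM + 0.1), and for depletion within occlusion with limma on log2(FPKM + 1) and the replicate block.

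The replicate numbers did not pair the samples: deviations of same-numbered libraries correlated at -0.0641 to 0.106 over 16 pairs, 1 of them over 0.1. Over all genes, depletion without occlusion called 1921 genes, 219 without the pair and 823 with the replicate block, and the interaction called 8, or 107 with DESeq2. On log2(FPKM + 0.1) the median of all genes for occlusion with microglia was 0.102, and on log2(FPKM + 1) folds of these low transcripts are understated. Counts of 0 to 10 in sham_CON limit the precision of every fold against that group for Ccl2, Ccl3, Ccl4, Ccl7, Ccl12 and Ccl17.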
